A study of Mus musculus with 10 samples.

Results

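The genes described here are 10 feedback genes of the MAP kinase pathways: the dual-specificity phosphatase genes Dusp1, Dusp2, Dusp4, Dusp5, Dusp6 and Dusp10, and the Sprouty-family genes Spry1, Spry2, Spred1 and Spred2. They were taken by symbol from a deposited count table of 55359 genes. All 10 were in the table, and all 10 passed the filter on low counts, which kept 15777 genes for testing. RNA was sequenced from spleen cells of pmel-1 mice, whose transgenic T cell receptor recognises the melanoma antigen gp100. All cells had been activated for 48 h with hgp100 and kept for another 48 h with hIL-2, and RNA was taken after 24 h of further culture. The study asked how T cells respond to transient mRNAs for IL-12 and for DRIL18, an IL-18 variant that resists its decoy receptor. There were 5 groups of 2 libraries each. Mixture cells were electroporated with scIL12 and DRIL18 mRNA together, IL12 cells with scIL-12 mRNA alone and DRIL18 cells with DRIL18 mRNA alone. Mock cells are labelled as electroporated, and what they received is not stated. NoEp cells carry the label WT in place of an electroporation and are read here as not electroporated. The amount of each mRNA is not given, so the dose of each in the mixture cannot be set against the dose given alone. The labels call the libraries biological replicates without tying them to separate animals, so the p-values measure the spread between these libraries, which may be technical.

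Mitogen-activated protein kinases (ERK, p38 and JNK) are switched on by phosphorylation of a threonine and a tyrosine, and dual-specificity phosphatases remove both phosphates. Many of these phosphatase genes are themselves transcribed when the kinases are active, which closes a negative feedback loop. Sprouty and Spred proteins act further upstream, at the membrane, where they restrain the activation of RAS and RAF. In T cells the same pathways run downstream of the T cell receptor and of several cytokine receptors.

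Library totals ran between 31281944 and 35062545 counts, with 20326 to 21358 genes detected per library. Levels are given as CPM, the count relative to a library total scaled by the trimmed mean of M-values (TMM), or as CPM per kb of exon where genes are compared with each other. Differences are log2 fold changes from edgeR's quasi-likelihood test, fitted to all 10 libraries, with Benjamini-Hochberg adjustment over the 15777 genes. A gene is said to have risen or fallen where its adjusted p was under 0.05. In bulk RNA a smaller number of cells of a type cannot be told apart from less RNA per cell. The 10 T cell markers were all detected, and their summed level was 3832 to 3856 CPM in mixture libraries, 4667 to 4811 CPM with IL12 and 5062 to 5134 CPM with DRIL18, against 5504 to 5594 CPM in Mock libraries and 5640 to 5858 CPM in NoEp libraries.

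Per kb of exon, Dusp2 had the highest level of the 10 genes, with a mean of 37.2 CPM per kb in mixture libraries and 42.5 CPM per kb in Mock libraries. Dusp2 (PAC-1) is a nuclear phosphatase that is induced when T cells are activated. In Mock libraries it was followed by Dusp5 at 17.1, Dusp10 at 11.8, Dusp6 at 9.56 and Spred2 at 4.96 CPM per kb. Dusp1 at 2.68, Dusp4 at 1.71, Spry1 at 0.965, Spred1 at 0.837 and Spry2 at 0.403 CPM per kb made up the lower end. The gap between Spry1 and Spred1 was smaller than the spread of Spry1 between its Mock libraries. The 6 phosphatase genes together summed to 71.2 and 72.9 CPM per kb in mixture libraries, 71.2 and 72.4 with IL12 and 74.1 and 72.1 with DRIL18, against 86.7 and 84.0 in Mock libraries and 89.0 and 83.3 in NoEp libraries. All 6 libraries that received a cytokine mRNA lay below all 4 that did not. Dusp2 alone made up 44.6% to 52.3% of this sum, but the sum did not follow Dusp2 alone. The mean of Dusp2 was 37.2 CPM per kb with the mixture and 32.1 with IL12, where the sums were alike. Dusp6 and Dusp10 were also lower with the mixture than in Mock libraries (4.76 against 9.56 and 6.60 against 11.8 CPM per kb). Dusp4 was higher (5.72 against 1.71 CPM per kb). The 4 Sprouty and Spred genes together summed to 12.5 and 12.8 CPM per kb in mixture libraries, 9.59 and 9.31 with IL12 and 6.05 and 6.14 with DRIL18, against 7.04 and 7.28 in Mock libraries. NoEp libraries had 7.32 and 7.08. Here the order differed: the mixture libraries were highest and the DRIL18 libraries lowest. Spred2 made up 51.1% to 73.5% of this sum over all libraries, and Spry1 made up 31.5% and 29.5% of it with IL12.

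**Figure D1:**
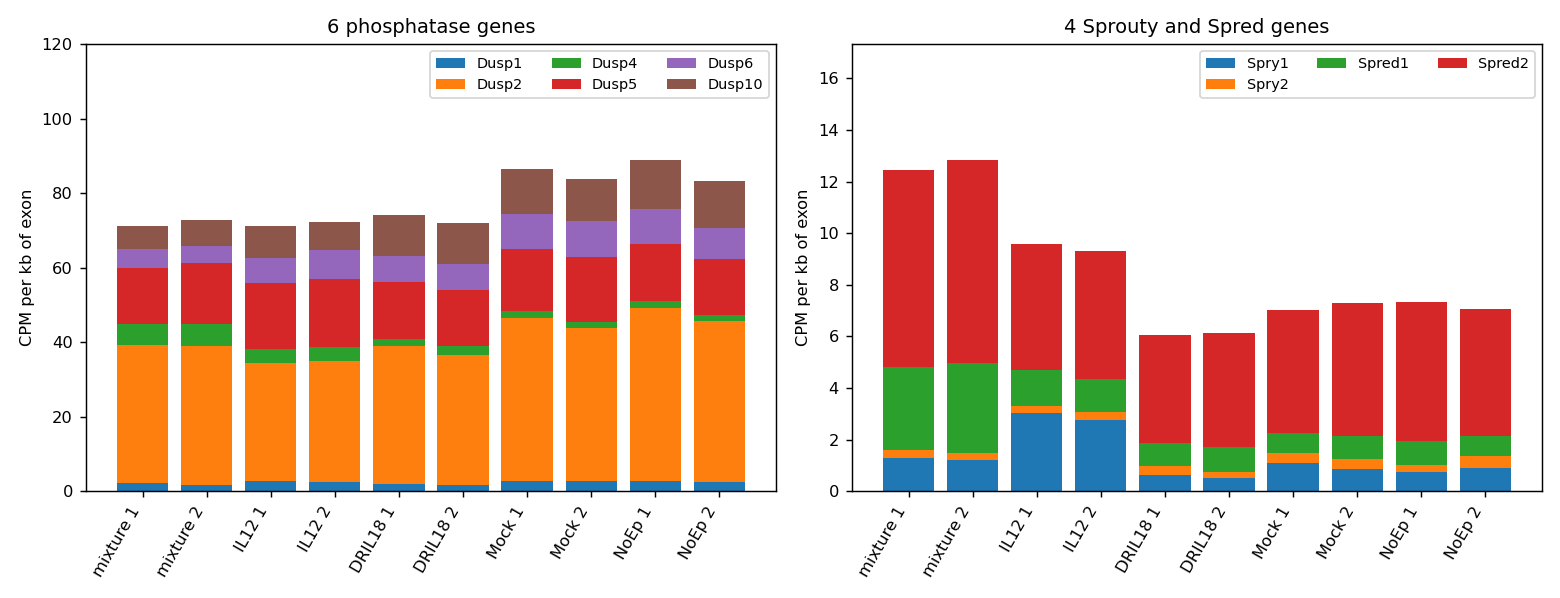
Stacked levels of the 6 phosphatase genes (left) and the 4 Sprouty and Spred genes (right) in each of the 10 libraries, in CPM per kb of exon on axes that start at 0. The phosphatase sum is 71.2 to 74.1 in the libraries with a cytokine mRNA and 83.3 to 89.0 in Mock and NoEp libraries, and the Sprouty and Spred sum reaches 12.5 and 12.8 in the mixture libraries.

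Spred1 and Spred2 rose with the mixture, and they are shown first with the letters of their promoters. Spred1, whose protein brings the RAS inhibitor neurofibromin to the membrane, had 21.7 and 23.5 CPM in mixture libraries, 9.37 and 8.77 with IL12 and 5.83 and 6.42 with DRIL18, against 5.40 and 5.95 in Mock libraries. NoEp libraries had 6.12 and 5.29 CPM. The mixture libraries lay far above all others, the IL12 libraries came next, and the DRIL18 libraries overlapped Mock. Spred1 rose 3.98-fold with the mixture against Mock (log2 fold change 1.99, SE 0.11, adjusted p = 1.57e-16 by edgeR). Spred2, a relative with the same RAS-restraining activity, had 35.3 and 36.4 CPM in mixture libraries, 22.7 and 22.9 with IL12 and 19.4 and 20.5 with DRIL18, against 22.0 and 23.8 in Mock libraries and 24.9 and 22.8 in NoEp libraries. Only the mixture libraries stood above the rest. Its rise with the mixture was 1.57-fold (log2 fold change 0.65, SE 0.07, adjusted p = 1.36e-09).

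The 250 bases before the annotated start are printed for the pair that rose together with the mixture (Spred1, Spred2), the pair that fell furthest (Dusp6, Dusp10) and the pair that held a match to a searched motif (Dusp1, Dusp5). They come from RefSeq on GRCm38.p6, where 9 of the 10 genes were matched, and are written 5′ to 3′ on the strand of the gene. Capitals mark a match and lower case all other bases.
Spred1: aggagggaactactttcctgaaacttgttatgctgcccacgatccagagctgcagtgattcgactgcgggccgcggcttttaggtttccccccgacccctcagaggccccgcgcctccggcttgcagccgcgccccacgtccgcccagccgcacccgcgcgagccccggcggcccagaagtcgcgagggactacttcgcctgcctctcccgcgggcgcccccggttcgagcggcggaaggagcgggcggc
Spred2: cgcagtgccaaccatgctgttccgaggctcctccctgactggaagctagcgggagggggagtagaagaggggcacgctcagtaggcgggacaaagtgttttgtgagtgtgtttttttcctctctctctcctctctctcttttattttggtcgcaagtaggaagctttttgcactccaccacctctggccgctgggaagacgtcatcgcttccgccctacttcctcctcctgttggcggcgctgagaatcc
Dusp6: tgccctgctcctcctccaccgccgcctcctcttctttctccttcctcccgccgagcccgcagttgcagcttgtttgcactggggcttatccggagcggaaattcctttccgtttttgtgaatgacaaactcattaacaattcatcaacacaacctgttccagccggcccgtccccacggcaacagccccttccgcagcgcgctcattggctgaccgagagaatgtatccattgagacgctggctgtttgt
Dusp10: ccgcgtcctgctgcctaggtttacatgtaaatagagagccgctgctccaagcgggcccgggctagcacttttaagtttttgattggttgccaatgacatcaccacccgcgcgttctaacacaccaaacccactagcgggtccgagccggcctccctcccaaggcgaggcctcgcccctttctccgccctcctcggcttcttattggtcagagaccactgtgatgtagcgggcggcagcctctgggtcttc
Dusp1: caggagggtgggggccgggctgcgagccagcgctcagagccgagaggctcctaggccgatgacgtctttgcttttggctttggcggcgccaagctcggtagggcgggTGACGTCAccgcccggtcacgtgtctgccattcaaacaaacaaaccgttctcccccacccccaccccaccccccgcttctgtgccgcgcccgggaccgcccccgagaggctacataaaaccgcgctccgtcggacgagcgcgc
Dusp5: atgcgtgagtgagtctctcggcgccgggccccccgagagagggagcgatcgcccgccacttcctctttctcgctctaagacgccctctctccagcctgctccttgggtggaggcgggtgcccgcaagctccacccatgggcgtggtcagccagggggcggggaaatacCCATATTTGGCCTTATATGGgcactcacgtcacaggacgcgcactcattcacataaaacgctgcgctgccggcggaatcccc
The regions are chr2:117120821-117121070 (plus strand) for Spred1, chr11:19924192-19924441 (plus) for Spred2, chr10:99262981-99263230 (plus) for Dusp6, chr1:184034131-184034380 (plus) for Dusp10, chr17:26508473-26508722 (minus) for Dusp1 and chr19:53528895-53529144 (plus) for Dusp5. Of 7 motifs searched on both strands, the cyclic AMP response element TGACGTCA matched in Dusp1, between positions -143 and -136 from the start, and in 1.55% of 32851 promoters of the same length. The CArG box, the element bound by serum response factor, matched at 2 adjacent places in Dusp5, between -82 and -73 and between -72 and -63, and in 1.47% of promoters. The AP-1 letters TGANTCA (6.75% of promoters), the GAS letters TTCNNNGAA (7.02%), the ETS letters CCGGAAGT (2.88%), the kappaB motif (7.25%) and TATAAA (12.4%) matched in none of the 9. The GC content of the 9 windows was 56.0% to 70.8%, against a median of 52.4% over all promoters.

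Against Mock, the mixture raised 3 of the 10 genes and lowered 4. Over all tested genes 63.9% passed in this comparison (32% higher, 31.9% lower), so a count of 7 in 10 is near the background. The median absolute log2 fold change was 0.55 over the 10 genes and 0.47 over all tested genes. The third gene that rose, beside Spred1 and Spred2, was Dusp4 (MKP-2), an inducible nuclear phosphatase of ERK and JNK. Dusp4 had 15.4 and 16.0 CPM in mixture libraries, 10.4 and 10.3 with IL12 and 4.90 and 6.95 with DRIL18, against 4.81 and 4.55 in Mock libraries and 5.08 and 4.28 in NoEp libraries. The order was mixture, then IL12, with the remaining libraries together at the bottom. Dusp4 rose 3.35-fold with the mixture (log2 fold change 1.74, SE 0.13, adjusted p = 4.06e-13). Of all tested genes, 6.97% had a larger absolute change than Spred1 and 8.98% a larger one than Dusp4.

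Dusp6 (MKP-3), the cytoplasmic phosphatase that acts on ERK, moved the other way. It had 15.6 and 14.3 CPM in mixture libraries, 21.3 and 23.8 with IL12 and 21.8 and 21.4 with DRIL18, against 29.8 and 30.1 in Mock libraries and 29.7 and 26.1 in NoEp libraries. Each single mRNA gave a level between the mixture and Mock, with no overlap. With the mixture Dusp6 fell 2.01-fold (SE 0.08 on the log2 scale, 95% interval -1.17 to -0.84, adjusted p = 1.74e-12). The count of Dusp4 over that of Dusp6 was 0.989 and 1.12 in mixture libraries, 0.487 and 0.431 with IL12 and 0.225 and 0.325 with DRIL18, against 0.161 and 0.151 in Mock libraries. Dusp10 (MKP-5), which acts on p38 and JNK, had 18.7 and 21.4 CPM in mixture libraries, 25.8 and 23.3 with IL12 and 32.8 and 33.8 with DRIL18, against 36.6 and 35.0 in Mock libraries and 39.7 and 38.1 in NoEp libraries. It was lowest in the mixture and next lowest with IL12. The fall with the mixture was 1.78-fold (log2 fold change -0.84, SE 0.07, adjusted p = 9.71e-12).

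The other phosphatase genes moved less with the mixture. Dusp1 (MKP-1), an immediate early gene whose product acts on p38, JNK and ERK in the nucleus, had 7.06 and 5.93 CPM in mixture libraries, 9.27 and 8.18 with IL12 and 6.43 and 5.98 with DRIL18, against 8.83 and 8.92 in Mock libraries and 9.32 and 8.79 in NoEp libraries. The mixture and DRIL18 libraries were the low ones and overlapped each other. Dusp1 fell by 0.45 on the log2 scale with the mixture (SE 0.12, adjusted p = 0.00188), a call lost without mixture replicate 2 (-0.33, adjusted p = 0.0552). Dusp2 had 74.5 and 74.7 CPM in mixture libraries, 63.6 and 65.0 with IL12 and 74.5 and 69.7 with DRIL18, against 88.2 and 82.2 in Mock libraries and 93.1 and 86.2 in NoEp libraries. It was lowest with IL12, and every library with a cytokine mRNA was below every Mock and NoEp library. With the mixture it fell by 0.19 (SE 0.05, adjusted p = 0.00126), and this call was lost without Mock replicate 1 (-0.14, adjusted p = 0.0558). Dusp5, a nuclear phosphatase specific for ERK, had 37.4 and 40.4 CPM in mixture libraries, 43.5 and 45.7 with IL12 and 38.1 and 37.1 with DRIL18, against 41.2 and 43.2 in Mock libraries and 37.8 and 37.6 in NoEp libraries. All 10 libraries lay within a narrow band, with IL12 at the top. Its mixture value of -0.12 did not pass (95% interval -0.24 to 0.00201, adjusted p = 0.0801). It did pass without mixture replicate 2 (-0.18, adjusted p = 0.0389) and with totals left unscaled (-0.18, adjusted p = 0.0108).

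**Figure D2:**
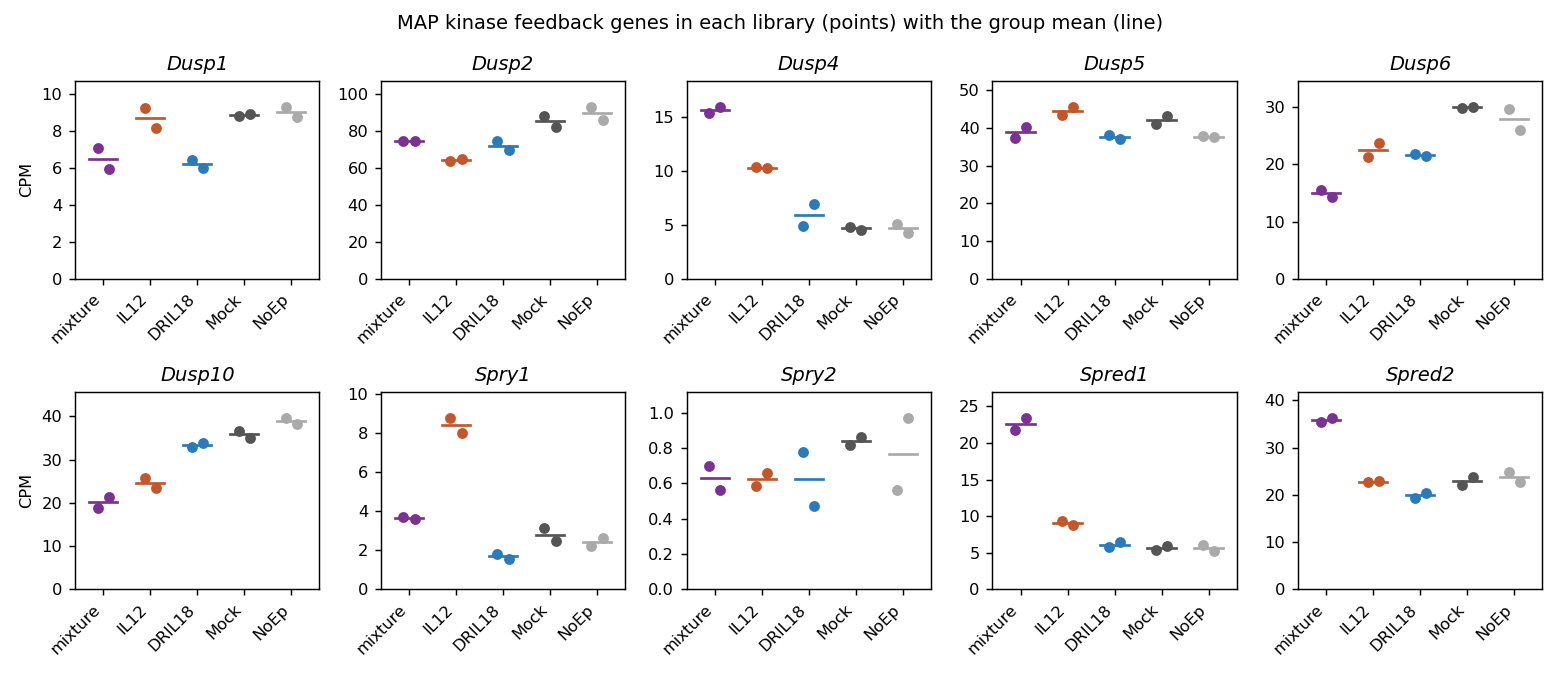
Level of each of the 10 genes in CPM (vertical axes start at 0) in every library (points) with the group mean (line), 2 libraries per group. Spred1 and Dusp4 are highest in the mixture libraries, Dusp6 and Dusp10 lowest there, and Spry1 is highest with IL12 at 8.78 and 7.99 CPM.

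Of the Sprouty genes, Spry1, an inhibitor of receptor signalling to RAS and ERK, had 3.71 and 3.59 CPM in mixture libraries, 8.78 and 7.99 with IL12 and 1.82 and 1.56 with DRIL18, against 3.14 and 2.47 in Mock libraries and 2.23 and 2.64 in NoEp libraries. It was highest with IL12 alone and lowest with DRIL18 alone, and the mixture lay between them. Its mixture value against Mock, 0.38 (95% interval 0.00490 to 0.75), did not pass at adjusted p = 0.0714, and did without Mock replicate 1 (0.56, adjusted p = 0.0378). Spry2, a close relative, had 0.700 and 0.563 CPM in mixture libraries, 0.588 and 0.660 with IL12 and 0.779 and 0.471 with DRIL18, against 0.820 and 0.862 in Mock libraries and 0.565 and 0.974 in NoEp libraries. These rest on 39 to 58 counts per group. The interval against Mock, -1.24 to 0.42 for the mixture, spans changes in either direction, so no difference was detectable at this depth. Dusp5 and Spry1 overlap genes on the other strand over 22.12% and 24.43% of their exon length. Those genes held 11 to 18 counts per library beside Dusp5 and 0 to 11 beside Spry1, the 11 in IL12 replicate 1. Dusp1 overlaps Ergic1 on the other strand over 11 bases, 0.33% of its exon length, where Ergic1 held 1798 to 2660 counts per library and Dusp1 200 to 316. The strand setting of the counting is not given in any source used here. Reads in these overlaps could have been counted in, or left out of, the Dusp5, Spry1 and Dusp1 levels.

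IL12 mRNA alone raised Spry1, Dusp4 and Spred1 and lowered Dusp10, Dusp6 and Dusp2. These are 6 of the 10 genes, beside 46.6% of all tested genes (23% higher, 23.6% lower). Against Mock, Spry1 rose 2.98-fold (log2 fold change 1.58, SE 0.17, adjusted p = 3.00e-09). Dusp4 rose 2.20-fold (1.14, SE 0.14, adjusted p = 3.57e-08) and Spred1 1.60-fold (0.68, SE 0.12, adjusted p = 2.16e-05). Among the genes that fell, Dusp10 changed by -0.54 (SE 0.07), Dusp6 by -0.41 (SE 0.08) and Dusp2 by -0.41 (SE 0.05), with adjusted p of at most 4.82e-05. The values of Dusp1 (-0.03), Dusp5 (0.08), Spred2 (-0.01) and Spry2 (-0.43) did not pass. For Spred2 the 95% interval was -0.16 to 0.14, and its IL12 libraries lay within the range of Mock.

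DRIL18 mRNA alone lowered 6 of the 10 genes and raised 0, beside 24.3% of all tested genes passing (12.2% higher, 12.1% lower). By edgeR 1 gene, Dusp4, was higher at an unadjusted p under 0.05. limma-voom and DESeq2 called 0 higher, and 5 and 4 lower. Spry1 fell by 0.73 on the log2 scale (SE 0.20, adjusted p = 0.00753), Dusp1 by 0.52 (SE 0.12, adjusted p = 0.00191), Dusp6 by 0.47 (SE 0.08, adjusted p = 1.89e-05) and Dusp2 by 0.24 (SE 0.05, adjusted p = 0.000474). Spred2 at -0.20 (adjusted p = 0.0469) and Dusp5 at -0.17 (adjusted p = 0.0391) passed narrowly. Without DRIL18 replicate 2, 3 genes passed, with Spry1 at adjusted p = 0.0858, Dusp5 at 0.198 and Spred2 at 0.0748. Without Mock replicate 1, 3 also passed, with Spry1 at adjusted p = 0.144, Dusp5 at 0.0610 and Spred2 at 0.0534. Without DRIL18 replicate 1 or Mock replicate 2, Dusp5 had adjusted p = 0.0943 and 0.288 and Spred2 0.258 and 0.342, and without either mixture library Spred2 had 0.0545. Dusp4 (0.34, adjusted p = 0.0940) passed without DRIL18 replicate 1 (0.57, adjusted p = 0.00928). Dusp10 (-0.10), Spred1 (0.11) and Spry2 (-0.42) did not pass.

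**Figure D3:**
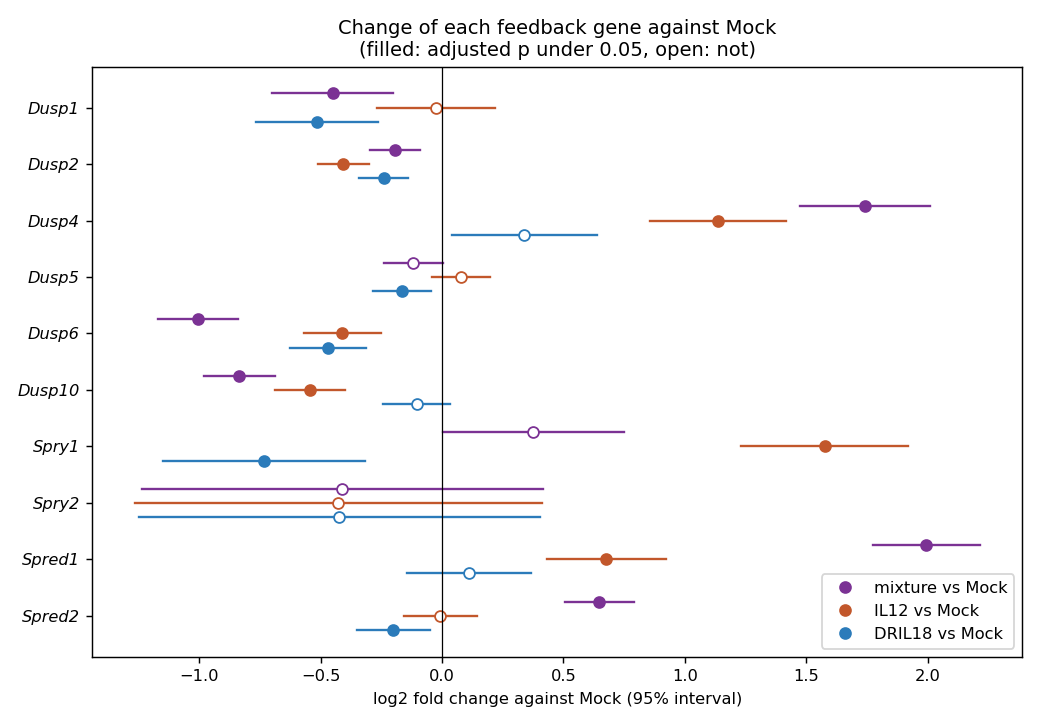
Log2 fold change of each gene against Mock for the mixture, IL12 and DRIL18, with 95% intervals; filled points passed at adjusted p under 0.05 and open points did not. Dusp4 and Spred1 lie to the right with the mixture and with IL12, Dusp6 lies to the left with all 3, and Spry1 is at 1.58 with IL12 and -0.73 with DRIL18.

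The mixture was also set against each single mRNA, which shares its libraries with the comparisons above. Against IL12 alone, 4 of the 10 genes were higher and 5 lower, beside 52.2% of all tested genes (25.8% higher, 26.3% lower). Spred1 was 2.49-fold higher (log2 fold change 1.32, SE 0.10, adjusted p = 2.19e-12), Spred2 1.57-fold, Dusp4 1.52-fold and Dusp2 1.16-fold higher, with adjusted p of at most 0.000750 for these 3. Spry1 was 2.30-fold lower (-1.20, SE 0.16, adjusted p = 2.00e-07) and Dusp6 1.51-fold lower (-0.59, SE 0.08, adjusted p = 3.72e-07). Dusp1 (-0.42), Dusp10 (-0.29) and Dusp5 (-0.20) were lower too, at adjusted p = 0.00446, 0.00157 and 0.00551. Dusp1 did not pass without mixture replicate 2 (adjusted p = 0.0934) or IL12 replicate 1 (0.0633), Dusp10 without mixture replicate 1 (0.0724), and Dusp5 without mixture replicate 1 (0.116) or IL12 replicate 2 (0.0647). Against DRIL18 alone, 4 were higher and 2 lower, beside 57.3% of all tested genes (28.3% higher, 29% lower). Spred1 was 3.69-fold, Dusp4 2.65-fold, Spry1 2.15-fold and Spred2 1.80-fold higher, and Dusp10 was 1.66-fold and Dusp6 1.45-fold lower, with adjusted p of at most 1.43e-05. Dusp1, Dusp2, Dusp5 and Spry2 did not pass, and their mixture and DRIL18 libraries overlapped.

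IL12 alone set against DRIL18 alone gave 6 genes higher and 2 lower, beside 39.5% of all tested genes (18.9% higher, 20.6% lower). Spry1 differed most, 4.95-fold higher with IL12 (log2 fold change 2.31, SE 0.18, adjusted p = 4.63e-12). Dusp4 was 1.74-fold, Spred1 1.48-fold, Dusp1 1.40-fold and Dusp5 1.18-fold higher, with adjusted p of at most 0.00195. Dusp10 was 1.36-fold lower with IL12 (-0.44, SE 0.07, adjusted p = 7.48e-06). Dusp2 (-0.17, adjusted p = 0.0107) did not pass without IL12 replicate 1 (0.0744) or DRIL18 replicate 1 (0.200). Spred2 (0.19, adjusted p = 0.0399) did not pass without any 1 of the 4 libraries compared (0.0861 and 0.117 without IL12 replicates 1 and 2, 0.219 and 0.0520 without DRIL18 replicates 1 and 2). With totals left unscaled the values were -0.26 for Dusp2, 0.15 for Dusp5 and 0.10 for Spred2, the last at adjusted p = 0.304. Dusp6 was at 0.06 (95% interval -0.10 to 0.22) and did not pass.

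The interaction asks whether the change with the mixture differs from the sum of the changes with each mRNA alone, on the log2 scale. Spred1, Spred2 and Dusp2 had positive interactions and 0 genes negative ones, beside 31.6% of all tested genes (14.6% higher, 17.1% lower). By edgeR, 0 were negative at an unadjusted p under 0.05, and limma-voom and DESeq2 gave 3 positive and 0 negative. For Spred1 the single changes summed to 0.79 and the mixture gave 1.99, a difference of 1.21 (SE 0.16, adjusted p = 5.31e-07). For Spred2 the sum was -0.21 and the mixture gave 0.65, a difference of 0.85 (SE 0.10, adjusted p = 5.83e-08). DRIL18 mRNA thus went with a Spred2 change of 0.65 when IL12 mRNA was present and -0.20 when it was not. Dusp2 had a mixture value of -0.19 where the single changes summed to -0.65, a difference of 0.46 (SE 0.07, adjusted p = 7.69e-06). It fell less with both mRNAs than with IL12 alone. A larger absolute interaction was seen in 9.96% of all tested genes for Spred1, 16.9% for Spred2 and 33.9% for Dusp2. For Dusp6 (-0.12, 95% interval -0.36 to 0.11), Dusp10 (-0.19, -0.39 to 0.0199) and Dusp4 (0.27, -0.12 to 0.65) the intervals include 0. Dusp4 passed without DRIL18 replicate 2 (0.54, adjusted p = 0.0397). Spry1 had -0.47 (-1.01 to 0.0696), and Dusp1 at 0.09, Dusp5 at -0.03 and Spry2 at 0.44 did not pass either.

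**Figure D4:**
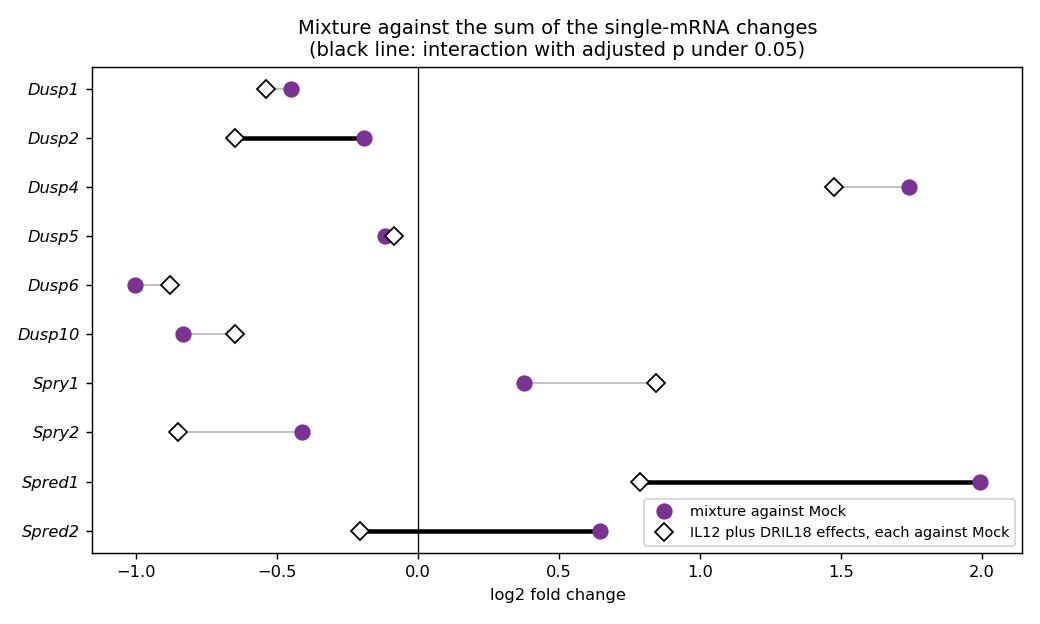
Change of mixture libraries against Mock on the log2 scale (filled circles) and the sum of the single-mRNA changes against Mock (open diamonds) for each gene; the line between them is the interaction, thick and black where its adjusted p was under 0.05. The lines of Spred1, Spred2 and Dusp2 are black, and those of the other 7 genes are grey.

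Mock and NoEp libraries differed little, in these genes as over all tested genes. By edgeR 0 of the 10 were called, beside 6.98% of all tested genes (3.34% higher, 3.64% lower). At an unadjusted p under 0.05 there was 1 gene, Dusp5 (log2 fold change 0.16, adjusted p = 0.101), and limma-voom and DESeq2 called 0. The median absolute log2 fold change was 0.09 over the 10 genes and 0.11 over all tested genes. Spred1 was at -0.00411 (95% interval -0.26 to 0.26) and Dusp4 at 0.00385 (-0.31 to 0.31).

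Other genes of the same pathways were read from lists, with the strongest 2 of each list named where they reached 5 CPM. Of the other MAP kinase phosphatase genes, 3 of 4 tested rose with the mixture and 1 fell. Over all tested genes, 32% were higher and 31.9% lower. The median log2 fold change of the 4 was 1.25, against -0.00209 over all tested genes. The fall, in Dusp9 (-0.64, SE 0.28, edgeR adjusted p = 0.0471), a gene named after its values were seen, was called neither by limma-voom nor by DESeq2. Dusp16 (MKP-7), which acts on JNK and p38, averaged 27.2 ± 0.617 CPM in mixture libraries and 6.55 ± 0.302 CPM in Mock libraries (SD, n = 2 each), a log2 fold change of 2.05 (SE 0.11, edgeR adjusted p = 1.37e-16). It also rose with IL12 alone (1.12, SE 0.12), and its interaction was 0.67 (SE 0.16, adjusted p = 0.00178). Dusp7, a cytoplasmic ERK phosphatase like Dusp6, rose by 0.45 with the mixture and by 1.08 with IL12 alone, and fell by 0.30 with DRIL18 alone, and its interaction was -0.33 (SE 0.10). Dusp6 fell in all 3. Dusp8, Spry4 and Spred3 were named after their values were seen. Dusp8 had 66 counts over the mixture libraries and 2 over the Mock libraries, a ratio of 33.5 (95% counting interval 8.91 to 282). Spry4, a further Sprouty gene, had 38 and 3 counts, a ratio of 12.9 (4.08 to 65.0). Spry4 and Spred3 were the tested members of their list. Both rose with the mixture, beside 32% of all tested genes that were higher. Spred3 was low too, at a mean of 1.99 CPM in mixture libraries and 0.948 CPM in Mock libraries.

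The 9 tested atypical phosphatase genes split 3 higher and 2 lower with the mixture, with Dusp22 at -0.62 (SE 0.08) and Dusp12 at 0.52 (SE 0.14). Those counts stand beside 32% of all tested genes higher and 31.9% lower. IL12 alone raised Dusp14 (1.10, SE 0.16), and DRIL18 alone lowered Dusp22 (-0.25, SE 0.08). The interactions were -0.75 (SE 0.23) for Dusp14 and -0.31 (SE 0.11) for Dusp22. In the RAS-RAF-ERK list, 9 rose and 7 fell of 22, near the 63.9% of all tested genes that passed. Ksr1, a scaffold that holds RAF, MEK and ERK together, averaged 238 ± 11.0 CPM in mixture libraries and 49.6 ± 3.07 CPM in Mock libraries (log2 fold change 2.26, SE 0.05, adjusted p = 1.78e-26). Plcg1, the phospholipase that feeds RAS activation from the T cell receptor, fell by 1.55 (SE 0.04). Nf1, the neurofibromin gene whose product Spred1 recruits, averaged 21.1 ± 1.89 CPM in mixture libraries, 9.52 ± 1.87 with IL12 and 10.2 ± 0.815 with DRIL18, against 9.79 ± 0.406 CPM in Mock libraries. The largest interactions in this list by the naming rule were those of Ksr1 at 1.24 (SE 0.07, adjusted p = 5.39e-15) and Nf1 at 1.09 (SE 0.16, adjusted p = 1.97e-06). With IL12 alone Ksr1 (0.71) and Hras (0.60) rose, and with DRIL18 alone Rasgrp1 (-0.47) and Mapk3, the ERK1 gene (-0.42), fell.

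In the p38 and JNK list, 9 rose and 8 fell of 20 with the mixture, beside 63.9% of all tested genes passing (32% higher, 31.9% lower). Gadd45g and Gadd45b, whose products activate a kinase upstream of p38 and JNK, rose by 3.35 (SE 0.06) and 2.81 (SE 0.08). Gadd45g also rose with IL12 alone (3.10) and Gadd45b with DRIL18 alone (1.08). Map2k6, a p38 kinase kinase, fell by 1.67 with IL12 alone, Mapk14, the p38 alpha gene, fell by 0.29 with DRIL18 alone, and the interactions were 1.39 for Gadd45b and -1.14 for Map3k5. Of 19 tested ERK-responsive transcripts, 13 rose and 2 fell with the mixture, 9 rose and 1 fell with IL12, and 4 rose and 5 fell with DRIL18. Of all tested genes, 63.9% passed with the mixture (32% higher, 31.9% lower) and 46.6% with IL12 (23% higher, 23.6% lower). With DRIL18, 24.3% passed (12.2% higher, 12.1% lower). The median log2 fold changes of the 19 were 1.19 with the mixture, 0.70 with IL12 and -0.16 with DRIL18. Over all tested genes they were -0.00209, -0.00651 and 0.00434. Etv5, an ETS-family transcription factor, rose by 3.96 (SE 0.32) and Nr4a1, an orphan nuclear receptor, by 2.86 (SE 0.15) with the mixture. Jun (3.19) and Egr1 (1.80) rose with IL12 alone, and with DRIL18 alone Lif rose by 1.41 and Ier3 changed by -1.05. Positive interactions were found for 8 of the 19 and negative ones for 4, with Etv5 at 2.07 (SE 0.56) and Phlda1 at 1.83 (SE 0.33). Over all tested genes 14.6% had a positive and 17.1% a negative interaction, and the negative count in the list was 3 by limma-voom and 2 by DESeq2. The changes named by the rule for these lists passed at an edgeR adjusted p of at most 0.0306.

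**Figure D5:**
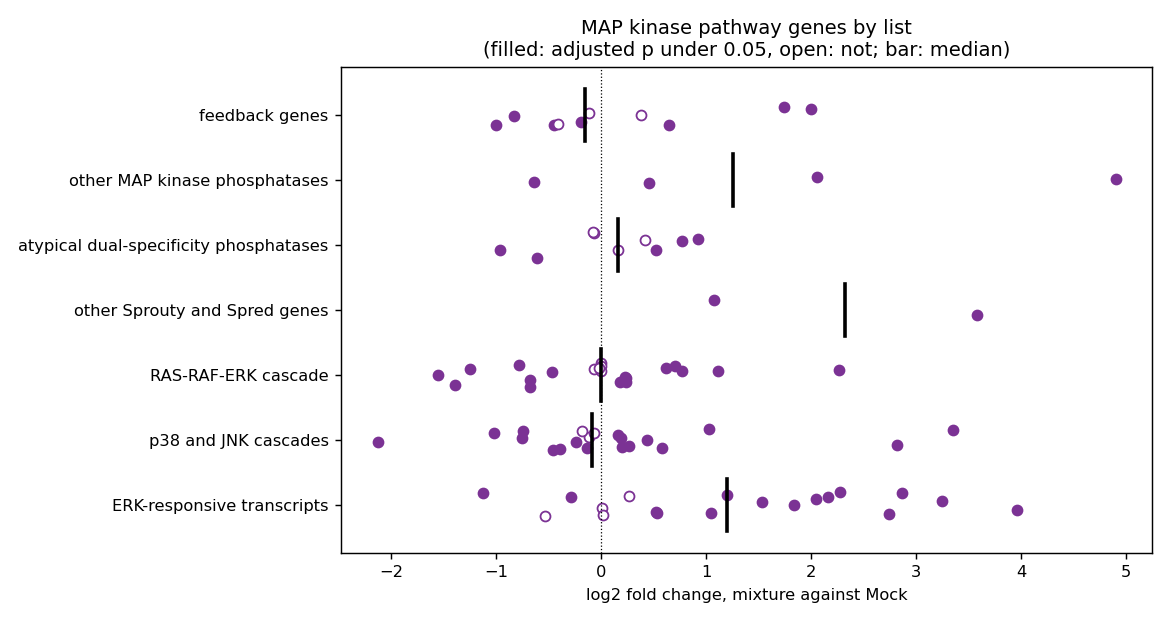
Change of mixture libraries against Mock on the log2 scale for each tested gene of the 10 feedback genes and 6 pathway lists (filled, adjusted p under 0.05; open, not; bar, median of the list). The ERK-responsive list has a median of 1.19 with 13 of 19 genes higher, the RAS-RAF-ERK list is spread to both sides, and the point at the far right is Dusp8, whose fold rests on 2 Mock counts.

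Lists of other spleen cells were read beside these results, and their part in them was not tested. The 10 B cell markers summed to 33.0 to 36.3 CPM in mixture libraries, 21.0 to 23.2 with IL12 and 30.2 to 31.6 with DRIL18, against 25.7 to 27.2 CPM in Mock libraries and 31.2 to 33.2 CPM in NoEp libraries. The 7 NK cell markers summed to 112 to 115 CPM in mixture libraries, 944 to 956 with IL12 and 189 to 192 with DRIL18. Mock libraries had 342 to 349 CPM and NoEp libraries 385 to 388 CPM. Only 3 of the 7 were tested, namely Klrb1f, Gzma and Eomes. Ncr1, Klrb1c, Klra8 and Klra4 failed the filter on low counts, so the sum cannot be read as the number of NK cells. The 6 gamma-delta T cell markers, of which 5 were tested, summed to 47.1 to 47.5 CPM in mixture libraries, 61.0 to 70.0 with IL12 and 99.9 to 108 with DRIL18, against 124 to 126 CPM in Mock libraries and 147 to 156 CPM in NoEp libraries. The 6 CD4 and regulatory T cell markers summed to 30.6 to 35.5 CPM in mixture libraries, 34.3 to 34.4 with IL12 and 39.6 to 42.4 with DRIL18, against 41.2 to 44.7 CPM in Mock libraries and 46.2 to 52.3 CPM in NoEp libraries. The T cell, gamma-delta and CD4 sums were thus all lower in mixture libraries than in Mock libraries. The 8 dendritic cell markers summed to 75.6 to 80.7 CPM in mixture libraries, 72.6 to 73.0 with IL12 and 82.9 to 87.2 with DRIL18. Mock libraries had 63.7 to 65.0 CPM and NoEp libraries 62.8 to 64.2 CPM. Only 4 of the 8 were tested, namely Zbtb46, Xcr1, Itgax and Bst2. Flt3, Clec9a, Siglech and Cd209a failed the filter, so this sum cannot be read as the number of dendritic cells either. The 10 macrophage and monocyte markers, of which 4 were tested, stayed between 7.61 and 11.7 CPM in all libraries. Neutrophil markers, 4 of 8 of them at 0 throughout, were at or below 0.177 CPM. Erythroid markers were at or below 0.889 CPM. A mark in the column names, bis, was on both mixture and both NoEp libraries, on 1 IL12 and 1 DRIL18 library and on no Mock library, and its meaning is not given. In mixture against Mock and in Mock against NoEp the mark thus cannot be told apart from the group. As a covariate it was estimated only from the IL12 and DRIL18 libraries, where it marks replicate 2. The covariate is therefore no full check of the mark in those comparisons. With it, Dusp1 (-0.30, edgeR adjusted p = 0.144) and Dusp2 (-0.16, adjusted p = 0.0752) no longer passed for the mixture against Mock.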

How the data were processed

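The authors deposited raw counts per gene for the 10 libraries. Per the labels' protocols the libraries were made with a TruSeq Stranded mRNA kit, and per the submitters' processing notes the tools were STAR 2.7.9, featureCounts, edgeR and limma with genome build mm39. The authors' deposited table of log2 values (13225 genes, 9 of the 10 genes, not Spry2) equals limma's voom on the deposited counts within 1e-10 and was used for no result. Symbols came from GENCODE M21, which named 52083 of 55359 identifiers; exon lengths and overlaps also came from M21 (GRCm38), not from the annotation used for counting.

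Counts were tested with edgeR 4.0.16 (R 4.3.3) by the quasi-likelihood F test after filterByExpr and TMM scaling, on 5 group means, with Benjamini-Hochberg adjustment and a threshold of 0.05. Intervals are 95%. Library totals were 31281944 to 35062545 counts, TMM factors 0.9547 to 1.027, and the common biological coefficient of variation was 3.391%. Intervals on ratios of counts are exact and cover counting error only. Replicate libraries differed by more than counting noise (chi-square per degree of freedom 2.615 to 4.941), so each counted as 1 sample. Other settings were RLE scaling, unscaled totals, no filter, a replicate block, a bis covariate, only the groups compared, limma-voom (limma 3.58.1), DESeq2 1.42.0 and leaving out each library. The fit was tested on simulated counts. All 10 genes are named in every comparison; from each pathway list the 2 genes with the largest change among those called, with at least 5 CPM in 1 group, are named. The genes and lists were chosen with earlier results of these data known.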

Additional observations from a re-analysis of the deposited data

Results flagged for a closer look

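For 3 of the 10 genes the change with DRIL18 mRNA differed with and without IL12 mRNA, by the test of the difference itself (edgeR's quasi-likelihood test of the interaction, Benjamini-Hochberg adjusted, 2 libraries per group). Over all tested genes 31.6% passed this test, so a count of 3 in 10 is near the background. Spred1 had an interaction of 1.21 on the log2 scale: it changed by 1.32 in mixture against IL12 libraries and by 0.11 in DRIL18 against Mock libraries. Spred2 had 0.85, with 0.65 in mixture against IL12 libraries and -0.20 in DRIL18 against Mock libraries. Dusp2 had 0.46, with 0.21 in mixture against IL12 libraries and -0.24 in DRIL18 against Mock libraries. The 3 interactions passed in every one of the 18 other settings. No group had enough libraries for a check of single outlying samples.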

How the results depend on the processing

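Over 18 other settings, 1437 values of the 10 genes were recomputed: 1394 kept their call and direction, 38 lost the call, 5 gained it and 0 reversed. With single libraries left out, the number of genes called ranged over 3 to 6 for DRIL18 against Mock, 6 to 8 for IL12 against DRIL18, 7 to 9 for mixture against IL12 and 3 to 4 for the interaction, and it was 6 for IL12 against Mock, 6 for mixture against DRIL18, 7 for mixture against Mock and 0 for Mock against NoEp each time. An equal count did not always mean the same genes. For mixture against Mock, Dusp5 took the place of Dusp1 without mixture replicate 2, and Spry1 that of Dusp2 without Mock replicate 1. For a group left with 1 library the lone library is assumed to vary like the other groups. For DRIL18 against Mock, Dusp5 also lost its call without the filter, with the bis covariate and by DESeq2 (adjusted p 0.0589 to 0.0722), and Spred2 with unscaled totals, without the filter, by limma-voom and by DESeq2 (0.0536 to 0.0887). For IL12 against DRIL18, Spred2 lost its call without the filter, with only the groups compared and by DESeq2 (0.0505 to 0.0753). With replicate number as a block, 7 genes were called for mixture against Mock, 6 for IL12 against Mock, 6 for DRIL18 against Mock and 3 for the interaction, as without it. The differences between replicates correlated between groups at -0.0351 to 0.0463. No pairing of the libraries by number was seen, though a weak one could be missed by this correlation. Over all genes, the calls of DRIL18 against Mock numbered 2525 without Mock replicate 2 and 3832 with it. Those of Mock against NoEp numbered 1102, and 172 with the bis covariate, 242 and 349 without Mock replicates 1 and 2 and 350 without NoEp replicate 2; the cause was not tested. With unscaled totals the share of higher calls was 35.1% in place of 49.4% for IL12 against Mock and 28.9% in place of 47.9% for IL12 against DRIL18. Depth limits Spry2, at 39 to 58 counts per group, and 2 libraries per group limit all tests.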
